A study of Mus musculus with 8 samples.

Results

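Autophagy genes were described in sorted B-1a cells of the mouse spleen, a CD5+ B-cell subset that arises early in life and makes natural IgM. The members were chosen by name from the 10783 genes of the deposited table of normalized read counts. They are every symbol that starts with Atg and a digit, *Gabarap*, Map1lc3 or Wipi, together with *Ulk1*, *Ulk2*, *Ulk3*, *Becn1*, *Sqstm1*, *Pik3c3*, *Pik3r4*, *Rb1cc1*, *Ambra1*, *Uvrag*, *Tfeb*, *Optn*, *Nbr1*, *Tax1bp1*, *Wdr45*, *Wdfy3* and *Epg5*. This gave 40 genes, and *Atg9b* and *Wipi1* were not analysed here. The study compared B-1a cells with and without CTLA-4, an inhibitory receptor, by RNA-seq of 8 libraries. Control mice were *Ctla4*+/+ (labelled wild type) and gave 3 libraries of IgMhi B-1a cells. CKO mice were *Ctla4* fl/fl, with the gene deleted in B cells, and gave 2 libraries of IgMhi B-1a cells and 3 libraries of IgMneg B-1a cells, which lack surface IgM. The strain is labelled BALB/c and the mice were young adults. They were untreated, control and CKO mice were kept as separate lines, and the sources used here do not say which sex was used or whether mice were pooled, so p-values measure the spread between these libraries.

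Autophagy encloses cytoplasm in a double membrane, the autophagosome, and delivers it to lysosomes. The ULK kinase complex starts the process, the class III PI3-kinase complex marks the forming membrane with a lipid, and ATG9, ATG2 and the WIPI proteins supply and extend that membrane. Ubiquitin-like conjugation enzymes then attach the ATG8 proteins (the LC3 and GABARAP families) to the membrane, where cargo receptors such as p62 bind them. In mouse B-1a cells, autophagy is known to be needed for their maintenance, and in long-lived plasma cells for survival.

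The libraries held 1404660 to 10289686 reads in genes, and the ribosomal RNA precursor *Rn45s* took 4.62% to 25.1% of them. Control libraries 1 and 2 were the shallowest, and the median autophagy gene had 114 and 45 reads in them against 264 to 522 in the other libraries. The B-cell markers *Cd79a*, *Cd79b*, *Ms4a1* and *Pax5* were present in every library, and the B-1a markers *Cd5*, *Spn*, *Bhlhe41* and *Zbtb32* were present in every library too. In CKO IgMneg against CKO IgMhi B-1a cells, however, *Cd79a* (log2 fold change -0.83), *Pax5* (-0.56), *Bhlhe41* (-0.73) and the plasma-cell gene *Prdm1* (-0.80) fell and *Spn* rose (0.85), with limma adjusted p of 0.00663 to 0.0412. *Cd79b* (0.17), *Ms4a1* (0.05), *Cd5* (0.29) and *Zbtb32* (0.05) did not pass there (limma adjusted p of 0.454 to 0.914), so the markers did not move as a set. Of 7 T-cell markers, 2 were in the table (*Cd3g* and *Lck*), and their sum was 407, 393 and 420 in control IgMhi, 364 and 509 in CKO IgMhi and 891, 862 and 1031 in CKO IgMneg B-1a cells. *Lck* was the larger part of each sum. *Cd3g* alone had 73.4, 95.8 and 63.1 in control IgMhi, 45.3 and 53.2 in CKO IgMhi and 184, 221 and 230 in CKO IgMneg libraries. CKO IgMneg library 3 stood apart with 120.7 normalized counts of the red-cell gene *Alas2*, against 0 to 8.86 in the other libraries. Of 5 myeloid markers measured, *Lyz2* (256.5, against 3.88 to 100.5), *Csf1r* (44.2, against 2.38 to 19.2) and *Itgam* were highest in that library. *Cd68* and *Mpeg1* were lowest there, and the sum of the 5 was 1467, against 1278 to 1680 in the other libraries. *Ctla4* had 42.2, 43.1 and 76.8 normalized counts in control IgMhi, 36.2 and 28.5 in CKO IgMhi and 48.5, 73.9 and 33.0 in CKO IgMneg libraries, but a count over the whole gene does not check the deletion of its floxed part. As these are bulk samples, fewer cells of a type and less RNA per cell cannot be told apart.

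The highest autophagy transcripts were those of a cargo receptor and of ATG8 proteins. Levels are compared between genes as mean normalized counts per kilobase of exon, with the percentile among all genes of the table. The cargo receptor *Sqstm1* (p62) had 647 normalized counts per kilobase (percentile 96.8), although 580 bases of its exons overlap 3010026O09Rik on the other strand, and the ATG8 proteins *Gabarap* and *Map1lc3b* (LC3B) had 562 (percentile 96.3) and 309 (percentile 92.8). *Uvrag*, a subunit of the class III PI3-kinase complex that acts in membrane traffic and autophagosome maturation, followed with 248 (percentile 90.5). At the other end, the adaptor *Wdfy3* (ALFY) had 1.07 (percentile 0.529), the ATG8 gene *Gabarapl1* 4.15, the cysteine protease *Atg4c* 6.93 and the initiating kinase *Ulk1* 12.1 normalized counts per kilobase. *Wdfy3* had 4.85 to 41.9 normalized counts over the 8 libraries, so its log2 differences have wide intervals. High and low members stood side by side within the ULK complex, the ATG8 family and the cargo receptors.

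**Figure D1:**
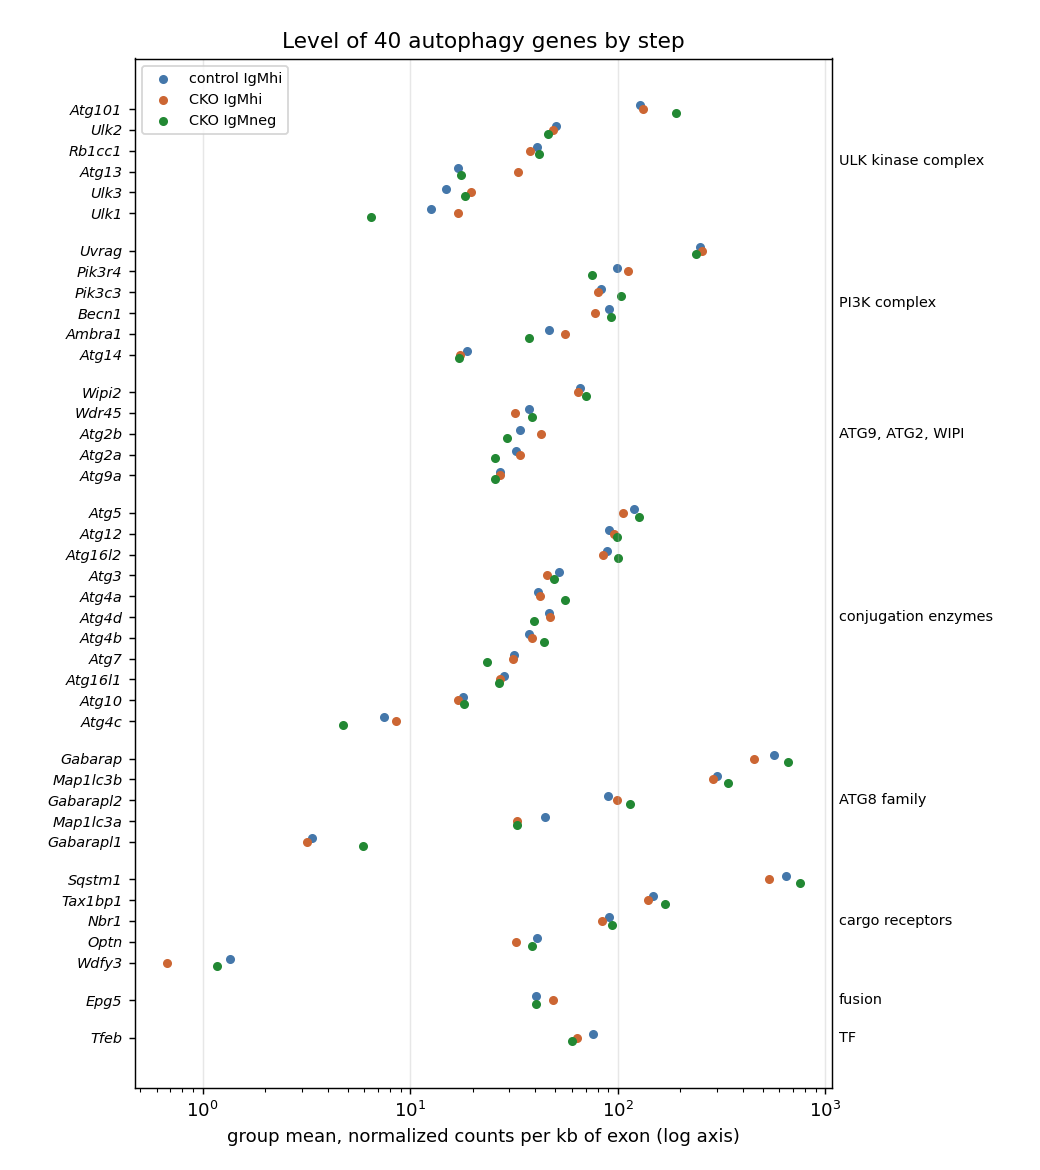
Mean level of each of the 40 autophagy genes in control IgMhi (blue), CKO IgMhi (orange) and CKO IgMneg (green) B-1a cells, in normalized counts per kilobase of exon on a log axis, grouped by step. Sqstm1, Gabarap and Map1lc3b were the highest and Wdfy3 the lowest, and differences between genes were larger than differences between groups.

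Few autophagy genes differed between groups. All 40 passed the filter on low values, and each comparison used limma on log2 values (normalized count plus 1), with p adjusted by Benjamini-Hochberg over 10627 genes and a threshold of 0.05. In CKO IgMneg against CKO IgMhi B-1a cells, 1 autophagy gene rose (*Gabarap*) and 2 fell (*Ulk1* and *Pik3r4*), which is 7.5% of the 40 beside 7.53% of all genes tested. By direction, 2.5% of the members rose and 5% fell, against 1.78% and 5.75% of all genes. In CKO IgMhi against control IgMhi B-1a cells, 0 of the 40 passed in limma, where 0.179% of all genes did. On the recovered reads, edgeR, DESeq2 and voom also called 0 (0.254%, 1.07% and 0.151% of all genes). At an unadjusted p under 0.05 there were 1 higher (*Atg13*) and 1 lower (*Gabarap*), against 7.01% and 2.61% of all genes. In CKO IgMneg against control IgMhi B-1a cells, 0 of 40 passed in limma (0.301% of all genes) and 0 with the other 3 tools, and before adjustment 2 were higher and 2 lower (7.55% and 7.85% of all genes). In CKO IgMneg against CKO IgMhi B-1a cells, 4 members were higher and 5 lower before adjustment, which is 10% and 12.5% of the 40 beside 10.4% and 13.8% of all genes. The share of autophagy genes called was thus near that of all genes.

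The median log2 fold change of the 40 genes was -0.02 in CKO IgMhi against control IgMhi, 0.10 in CKO IgMneg against CKO IgMhi and 0.02 in CKO IgMneg against control IgMhi B-1a cells. Over all genes tested the medians were 0.00, 0.01 and 0.01. These 3 comparisons share libraries, so their values are given side by side and not as repeats of each other. For 33 of the 40 genes in each comparison, the 95% interval lay within 1 log2 unit of no change, and within 0.5 units it lay for 12, 5 and 13 genes. Changes smaller than 0.5 log2 units were therefore not bounded for most members at this depth and number of libraries. The libraries of the groups did not overlap for 7 genes that were higher and 8 that were lower in CKO IgMneg than in CKO IgMhi B-1a cells (17.5% and 20% of the members, beside 20.3% and 22% of all genes). The same held for 4 higher and 3 lower genes in CKO IgMhi against control IgMhi (16.2% and 12.6% of all genes) and for 4 higher and 2 lower genes in CKO IgMneg against control IgMhi B-1a cells (9.91% and 9.74% of all genes).

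**Figure D2:**
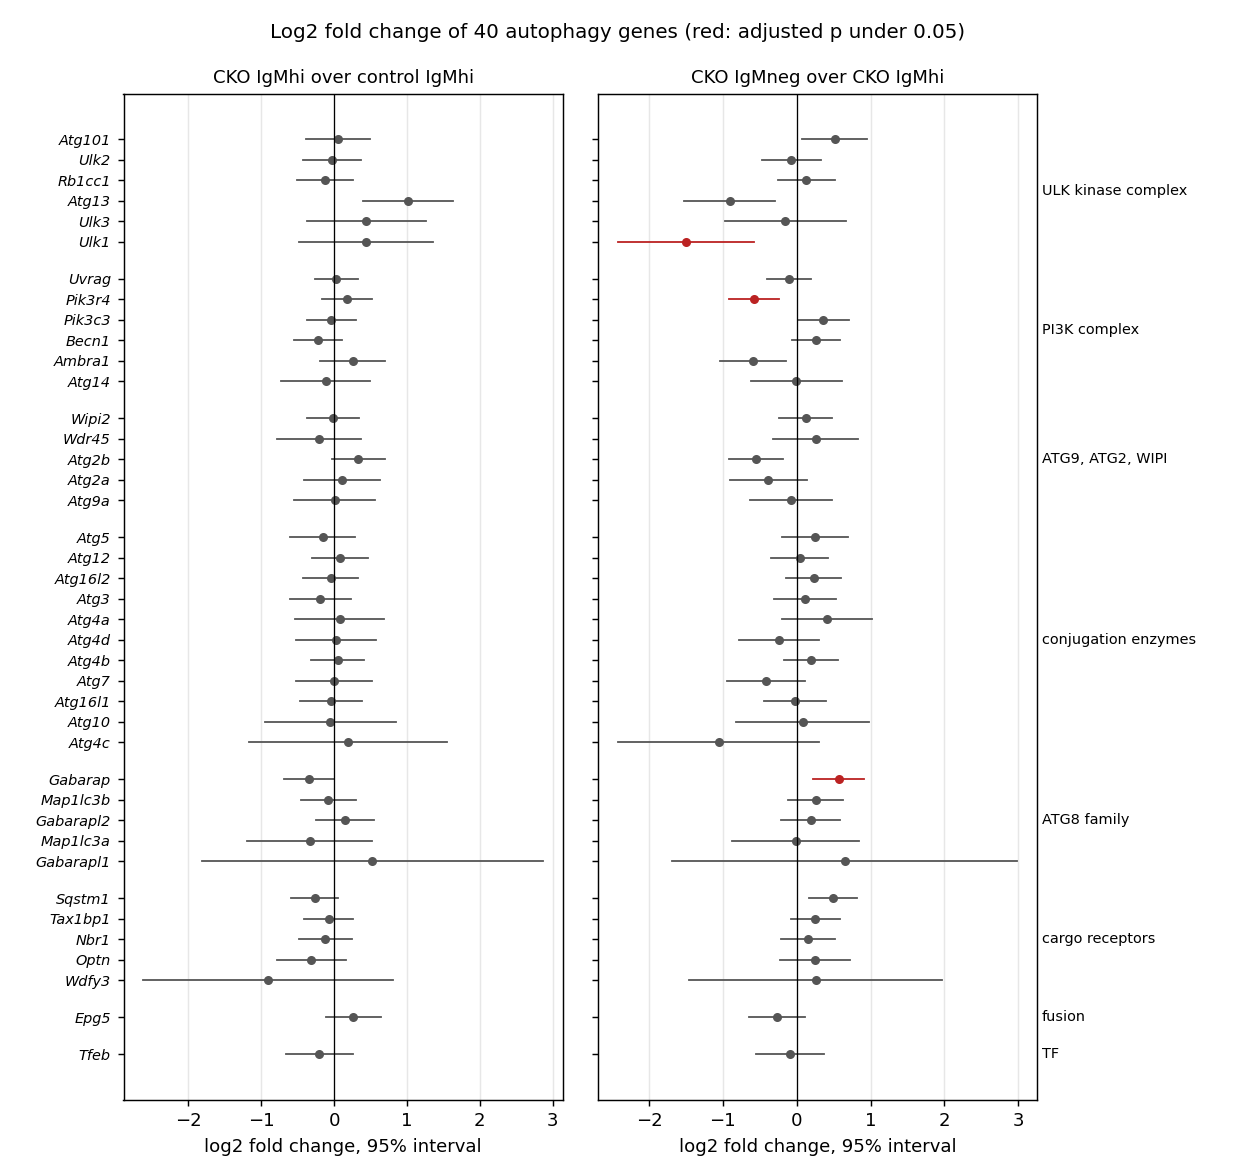
Log2 fold change of each autophagy gene with its 95% interval from limma, for CKO IgMhi over control IgMhi (left) and CKO IgMneg over CKO IgMhi B-1a cells (right), grouped by step. Ulk1, Pik3r4 and Gabarap on the right (red) have an adjusted p under 0.05, and on the left no gene does.

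In the ULK kinase complex, the level of the catalytic subunit *Ulk1* fell in CKO IgMneg against CKO IgMhi B-1a cells. *Ulk1* (chr5:111213507-111239116 of mm9, minus strand) had 48.9, 86.2 and 62.6 normalized counts in control IgMhi libraries 1, 2 and 3, 71.7 and 106 in CKO IgMhi libraries 2 and 3, and 52.4, 34.1 and 15.1 in CKO IgMneg libraries 1, 2 and 3. All 3 IgMneg libraries lay below both CKO IgMhi libraries, while IgMneg library 1 overlapped the controls. The log2 fold change of CKO IgMneg over CKO IgMhi was -1.50 (standard error 0.43, limma adjusted p = 0.0449). The gene was thinly covered, with 54, 43 and 27 reads in the IgMneg libraries and 95 and 167 in the CKO IgMhi libraries. Against control IgMhi the IgMneg libraries gave -1.07 (adjusted p = 0.216), and CKO IgMhi against control IgMhi gave 0.43 (adjusted p = 0.807).

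*Atg13*, the regulatory subunit that links ULK1 to the rest of the complex, had the largest log2 difference among members with non-overlapping libraries in CKO IgMhi against control IgMhi B-1a cells. Its normalized counts were 77.8, 47.9 and 97.5 in control IgMhi, 146 and 144 in CKO IgMhi and 80.5, 82.6 and 68.2 in CKO IgMneg libraries. Both CKO IgMhi libraries lay above every other library, and the control and IgMneg libraries overlapped. The log2 differences were 1.01 for CKO IgMhi over control IgMhi (standard error 0.29, limma adjusted p = 0.186) and -0.91 for CKO IgMneg over CKO IgMhi (standard error 0.29, adjusted p = 0.0664), and neither passed in limma. In the second, edgeR (adjusted p = 0.0236), DESeq2 (0.0189) and voom (0.00906) called *Atg13* as lower. *Atg101*, which stabilises ATG13, had 182, 134 and 157 normalized counts in control IgMhi, 174 and 151 in CKO IgMhi and 262, 246 and 195 in CKO IgMneg libraries. The 3 IgMneg libraries were the highest, yet the log2 differences of 0.52 over CKO IgMhi (adjusted p = 0.14) and 0.57 over control IgMhi (adjusted p = 0.176) did not pass.

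*Rb1cc1* (FIP200), the scaffold of the complex, had 609, 594 and 606 normalized counts in control IgMhi, 595 and 512 in CKO IgMhi and 764, 617 and 467 in CKO IgMneg libraries. Its groups overlapped throughout, and its 3 log2 differences were -0.13, 0.13 and 0.00 in the order CKO IgMhi over control IgMhi, CKO IgMneg over CKO IgMhi and CKO IgMneg over control IgMhi. The related kinases *Ulk2* and *Ulk3* had log2 differences of -0.03 and 0.44 in the first comparison and -0.07 and -0.15 in the second. Within this complex, the log2 differences in CKO IgMneg against CKO IgMhi B-1a cells thus ran from -1.50 to 0.52, with 1 of 6 genes called.

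In the class III PI3-kinase complex, *Pik3r4* (VPS15), the regulatory subunit that holds the lipid kinase in the complex, fell in the same comparison. *Pik3r4* (chr9:105545325-105589985 of mm9, plus strand) had 411, 522 and 523 normalized counts in control IgMhi, 543 and 546 in CKO IgMhi and 337, 384 and 375 in CKO IgMneg libraries. The IgMneg libraries were the lowest of all 8, and the CKO IgMhi libraries were the highest. The log2 fold change of CKO IgMneg over CKO IgMhi was -0.58 (standard error 0.16, limma adjusted p = 0.038), and over control IgMhi it was -0.40 (standard error 0.14, adjusted p = 0.211), which did not pass. The catalytic subunit *Pik3c3* (VPS34) had 387, 373 and 347 normalized counts in control IgMhi, 379 and 341 in CKO IgMhi and 525, 435 and 433 in CKO IgMneg libraries. Here the IgMneg libraries were the highest of all 8, opposite in order to *Pik3r4*, with log2 differences of 0.36 (adjusted p = 0.177) over CKO IgMhi and 0.33 (adjusted p = 0.296) over control IgMhi that did not pass.

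*Becn1* (Beclin 1), the scaffold of the same complex, had 618, 728 and 577 normalized counts in control IgMhi, 515 and 581 in CKO IgMhi and 681, 623 and 671 in CKO IgMneg libraries. The IgMneg libraries lay above both CKO IgMhi libraries by a log2 difference of 0.26 (adjusted p = 0.309) and overlapped the controls. Exons of *Becn1* overlap those of *Cntd1* on the other strand by 3104 bases, and the strand of counting is not stated, so its level is uncertain. *Ambra1*, which binds BECN1 and the ULK complex, had 316, 244 and 298 normalized counts in control IgMhi, 289 and 398 in CKO IgMhi and 280.3, 224 and 183 in CKO IgMneg libraries. All IgMneg libraries were below both CKO IgMhi libraries, with a log2 difference of -0.59 (standard error 0.21, limma adjusted p = 0.098) that did not pass, while voom called it as lower (adjusted p = 0.0416) and edgeR and DESeq2 did not.

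*Uvrag* had 856, 814 and 908 normalized counts in control IgMhi, 866 and 892 in CKO IgMhi and 851, 761 and 836 in CKO IgMneg libraries, the narrowest spread among members relative to its level. Its 95% intervals of -0.26 to 0.33, -0.41 to 0.19 and -0.34 to 0.19 in the 3 comparisons lay within 0.41 log2 units of no change. *Atg14*, the subunit that directs the complex to autophagy, had 53.3 to 77.8 normalized counts over all libraries and log2 differences of -0.12, -0.01 and -0.13.

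**Figure D3:**
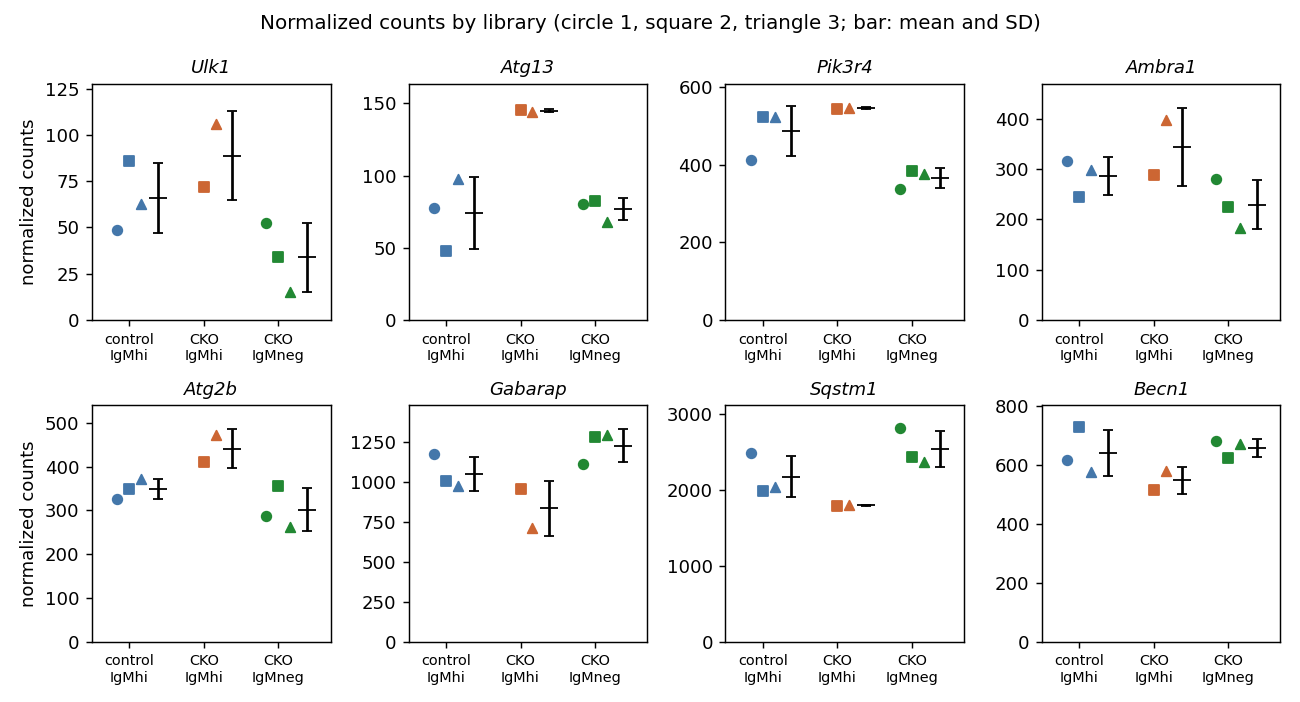
Normalized counts of 8 autophagy genes in each library of control IgMhi (blue), CKO IgMhi (orange) and CKO IgMneg (green) B-1a cells, with library numbers 1 to 3 as circle, square and triangle and the mean ± SD of each group in black (n = 3, 2 and 3). Ulk1 and Pik3r4 are lower and Gabarap is higher in all IgMneg than in both CKO IgMhi libraries.

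Of the membrane supply genes, 0 passed limma's test in any comparison, with 1 at an unadjusted p under 0.05 in CKO IgMneg against CKO IgMhi B-1a cells (*Atg2b*), where edgeR, DESeq2 and voom called it. *Atg2b* encodes a lipid transfer protein that feeds the growing membrane. It had 327, 349 and 372 normalized counts in control IgMhi, 409.8 and 473 in CKO IgMhi and 288, 356 and 262 in CKO IgMneg libraries. Both CKO IgMhi libraries were the highest, and IgMneg and control libraries overlapped. The log2 difference of CKO IgMneg over CKO IgMhi was -0.55 (standard error 0.17, limma adjusted p = 0.0615). Its paralog *Atg2a* gave -0.38 (adjusted p = 0.365) in that comparison. *Atg9a*, the membrane protein of the vesicles that seed the autophagosome, had 131, 81.4 and 125 normalized counts in control IgMhi, 102 and 121 in CKO IgMhi and 115, 86.6 and 117 in CKO IgMneg libraries, and *Wipi2*, which binds the lipid made by the PI3-kinase complex, had 485, 484 and 611, 495 and 540.0 and 657, 561 and 486 in the same order. The groups overlapped for both genes, and for *Wdr45* (WIPI4), whose 3 log2 differences were -0.21, 0.25 and 0.05.

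Of the 11 conjugation enzymes, 0 passed in limma in any comparison, none had a p below 0.05 before adjustment, and edgeR, DESeq2 and voom called 0. Leaving out *Atg4c*, their log2 differences ran from -0.19 to 0.09 in CKO IgMhi against control IgMhi and from -0.42 to 0.41 in CKO IgMneg against CKO IgMhi B-1a cells. *Atg5*, which forms a conjugate with ATG12 that directs lipidation of ATG8 proteins, had 282, 345 and 221 normalized counts in control IgMhi, 273 and 229 in CKO IgMhi and 299, 356 and 249 in CKO IgMneg libraries. Its groups overlapped in every comparison. *Atg7*, the E1-like enzyme that activates ATG12 and the ATG8 proteins, had 133, 95.8 and 116 in control IgMhi, 104 and 125 in CKO IgMhi and 92.1, 93.7 and 72.1 in CKO IgMneg libraries. The 3 IgMneg libraries were the lowest of the 8, with log2 differences of -0.42 (adjusted p = 0.322) over CKO IgMhi and -0.41 (adjusted p = 0.381) over control IgMhi that did not pass. *Atg16l1*, which places the conjugation machinery on the membrane, had 305, 211 and 301 in control IgMhi, 263 and 258 in CKO IgMhi and 296, 255 and 223 in CKO IgMneg libraries, and its groups overlapped.

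*Atg4a*, one of the cysteine proteases that process ATG8 proteins, had 68.9, 144 and 116 normalized counts in control IgMhi, 132 and 92.4 in CKO IgMhi and 134, 171 and 139 in CKO IgMneg libraries. The IgMneg libraries lay above the CKO IgMhi libraries but overlapped the controls, with a log2 difference of 0.41 (adjusted p = 0.412). *Atg4c* was near the lower end of detection, with 4.47 to 35.5 normalized counts over all libraries, and its interval of -2.42 to 0.30 in CKO IgMneg against CKO IgMhi is too wide for a statement. Exons of *Atg4d* overlap those of *Kri1* on the other strand by 791 bases, which leaves its level uncertain in the same way as that of *Becn1*. The others (*Atg3*, *Atg4b*, *Atg4d*, *Atg10*, *Atg12* and *Atg16l2*) had adjusted p of 0.462 to 0.931 in that comparison.

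Among the ATG8 genes, *Gabarap* rose in CKO IgMneg against CKO IgMhi B-1a cells. *Gabarap* (chr11:69804645-69808453 of mm9, plus strand) had 1172, 1005 and 971 normalized counts in control IgMhi, 955 and 713 in CKO IgMhi and 1108, 1278 and 1289 in CKO IgMneg libraries. Both CKO IgMhi libraries were the lowest of the 8, and the IgMneg libraries overlapped the controls. The log2 fold change was 0.57 (standard error 0.16, limma adjusted p = 0.0408) over CKO IgMhi and 0.22 (adjusted p = 0.466) over control IgMhi B-1a cells. CKO IgMhi against control IgMhi gave -0.34 (standard error 0.16, adjusted p = 0.517), which did not pass.

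*Map1lc3b*, whose lipidated protein is the usual marker of autophagosomes, had 491, 498 and 548 normalized counts in control IgMhi, 582 and 403 in CKO IgMhi and 496, 629.7 and 620.3 in CKO IgMneg libraries, and its groups overlapped. *Gabarapl2* (GATE-16) had 205, 196 and 222 in control IgMhi, 233 and 227 in CKO IgMhi and 223, 313 and 259 in CKO IgMneg libraries. All IgMneg libraries were above all controls for *Gabarapl2*, by a log2 difference of 0.34 (adjusted p = 0.345) that did not pass. *Map1lc3a* had 28.7 to 75.6 normalized counts over all libraries. *Gabarapl1* had 0 reads in control library 2, where 3 reads would be 14.4 normalized counts, and 4.43 to 17.9 normalized counts in the other libraries, so no fold change is given for it in the text. In this family 4 of 5 log2 differences in CKO IgMneg against CKO IgMhi B-1a cells were positive (5 of 5 after quantile normalization and 3 of 5 after removal of a trend on length and GC content), and 1 of the 5 genes, *Gabarap*, was called. The positive ones include *Gabarapl1*, whose sign is uncertain at its low level. Over all genes tested, 5395 of 10627 log2 differences were positive. How reads shared with near-identical gene copies were counted is not given in the sources used here.

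The cargo receptors and adaptors all had positive log2 differences in CKO IgMneg against CKO IgMhi B-1a cells (5 of 5, from 0.15 to 0.50), and 0 of them passed in limma. The sign of *Wdfy3* rested on CKO IgMneg library 3, with 4.85, 7.15 and 41.9 normalized counts in the IgMneg and 14.3 and 6.33 in the CKO IgMhi libraries, and without that library its log2 difference was -0.62. It was also negative without CKO IgMhi library 3, with array weights and after thinning, whereas the other 4 receptors were positive in all alternatives run. DESeq2 and voom called *Sqstm1* there, and 1 receptor (*Sqstm1*) had an unadjusted p under 0.05. *Sqstm1* (chr11:50012868-50024329 of mm9, minus strand), whose protein p62 brings ubiquitinated cargo to autophagosomes, had 2488, 1992 and 2048 normalized counts in control IgMhi, 1793 and 1804 in CKO IgMhi and 2821, 2433 and 2376 in CKO IgMneg libraries. Both CKO IgMhi libraries were the lowest of the 8, and IgMneg libraries 2 and 3 lay within the range of the controls. The log2 difference was 0.50 (standard error 0.15, limma adjusted p = 0.0582) over CKO IgMhi and 0.23 (adjusted p = 0.436) over control IgMhi B-1a cells. *Tax1bp1*, another ubiquitin-binding receptor, gave 0.25 over CKO IgMhi, and the receptors *Nbr1* and *Optn* gave 0.15 and 0.25. In CKO IgMhi against control IgMhi B-1a cells the same 5 genes had negative log2 differences (median -0.27, adjusted p of 0.621 to 0.927), but with scaling to total reads only 3 of 5 were negative. As both comparisons use the CKO IgMhi libraries, low values in those libraries enter both with opposite sign.

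*Epg5*, a tether for fusion of autophagosomes with lysosomes, had 438, 339.9 and 389 normalized counts in control IgMhi, 404 and 534 in CKO IgMhi and 408, 339.9 and 419 in CKO IgMneg libraries, and the groups overlapped in each comparison. *Tfeb*, the transcription factor of lysosomal and autophagy genes, had 554, 297 and 441 in control IgMhi, 357 and 367 in CKO IgMhi and 394, 309 and 321 in CKO IgMneg libraries. Control libraries 1 and 2 were the highest and the lowest of all 8 for *Tfeb*, so the spread among controls was wider than any difference between groups, and its log2 differences were -0.20, -0.09 and -0.30 in the order above.

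Promoter windows of the pair of members that fell are shown because both encode kinase complex subunits, and their sequences differ in GC boxes. The windows run from 250 bases before to 50 bases after the RefSeq start of the gene in GRCm38.p6, and a GC box is GGGCGG or its complement CCGCCC, in capitals. The *Ulk1* window is chr5:110810032-110810331 on the minus strand, with 5 GC boxes and 68.0% G and C. The *Pik3r4* window is chr9:105642745-105643044 on the plus strand, with 0 GC boxes, so no capitals, and 50.7% G and C.
Ulk1: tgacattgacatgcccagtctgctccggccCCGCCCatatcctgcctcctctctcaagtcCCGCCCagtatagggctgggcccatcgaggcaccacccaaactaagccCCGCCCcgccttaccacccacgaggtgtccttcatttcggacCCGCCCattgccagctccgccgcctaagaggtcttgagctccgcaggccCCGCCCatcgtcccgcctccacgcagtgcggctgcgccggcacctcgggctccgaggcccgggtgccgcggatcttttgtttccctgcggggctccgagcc
Pik3r4: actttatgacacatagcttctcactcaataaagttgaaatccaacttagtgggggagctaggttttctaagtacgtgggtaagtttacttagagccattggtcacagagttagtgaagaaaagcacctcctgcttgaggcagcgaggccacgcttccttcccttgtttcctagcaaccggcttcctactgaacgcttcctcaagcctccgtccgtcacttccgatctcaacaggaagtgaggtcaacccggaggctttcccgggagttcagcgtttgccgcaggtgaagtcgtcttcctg
RefSeq windows were matched for 32 of the 40 members (38 windows). Of the 38, 24 (63.2%) held a GC box on either strand, against 35.7% of all 32851 RefSeq windows. All windows, here and below, include genes not measured in these cells, so the shares do not compare like sets. A CCAAT box (CCAAT or its complement ATTGG) was in 10 of the 38 (26.3%), that of *Pik3r4* among them, against 37.4% of all windows. The window of *Gabarap*, the member that rose, held 0 GC boxes. It is not printed because the RefSeq start of this gene lies downstream of its start in GENCODE vM1. The window may therefore not cover the bases before that other start, and the count of 0 does not describe them. A match is a description and not a site of binding.

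Sequences around the E box are shown because TFEB, itself a member, is known to bind CACGTG in promoters of autophagy and lysosome genes. The E box, which reads the same on both strands and is in capitals, was in 4 of the 38 windows (10.5%, against 7.15% of all windows), those of *Atg3*, *Atg5*, *Atg7* and *Atg14*. The *Atg3* window holds 2 E boxes, 94 and 71 bases before the start, and the one nearer the start is shown. The longer TCACGTGA, which contains it, was in 1 of the 38 (*Atg3*), against 0.974% of all windows. These stretches lie in GRCm38.p6 at chr16:45158748-45158773 (*Atg3*, plus strand), chr10:44268315-44268340 (*Atg5*, plus strand), chr6:114670954-114670979 (*Atg7*, plus strand) and chr14:47568420-47568445 (*Atg14*, minus strand).
Atg3: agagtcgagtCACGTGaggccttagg
Atg5: gagcgcttgcCACGTGgtcttggtga
Atg7: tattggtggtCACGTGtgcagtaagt
Atg14: aacaaaatccCACGTGactggccctg
None of these 4 genes passed limma's test in CKO IgMneg against CKO IgMhi B-1a cells, with 0 below 0.05 before adjustment and 0 calls by edgeR, DESeq2 or voom. Their log2 differences there were 0.11, 0.25, -0.42 and -0.01 in the order listed.

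Fold changes in CKO IgMneg against CKO IgMhi B-1a cells moved with gene length across the whole table. Over 10441 genes with an annotated exon length, Spearman's rho between length and log2 fold change was -0.39, and over the 40 members it was -0.30, as a description across genes that share libraries. With genes split by length into 10 bins of 1044 or 1045, the median log2 fold change was 0.30 in the shortest bin and -0.37 in the longest. *Gabarap* (1844 bases of exon) was above and *Pik3r4* (4884 bases) and *Ulk1* (5213 bases) were below the median of genes of their length. After a trend on length and GC content was removed, none of the 3 passed, with log2 fold changes of 0.35 for *Gabarap* (adjusted p = 0.148), -0.44 for *Pik3r4* (adjusted p = 0.122) and -1.24 for *Ulk1* (adjusted p = 0.114). *Sqstm1* then passed, with 0.49 (adjusted p = 0.0408). Length went with fold change in the other comparisons too. Spearman's rho in CKO IgMhi against control IgMhi B-1a cells was 0.30 over all genes and 0.04 over the members. In CKO IgMneg against control IgMhi B-1a cells it was -0.23 and -0.35. The part of length in these results was not tested further.

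**Figure D4:**
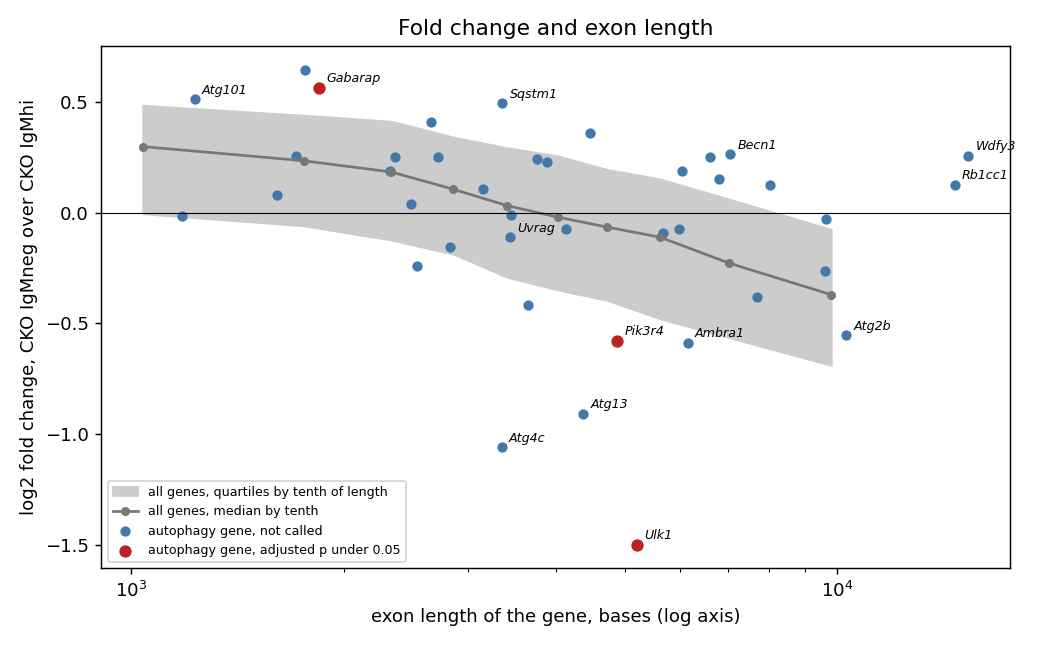
Log2 fold change of CKO IgMneg over CKO IgMhi B-1a cells against exon length (log axis) for the 40 autophagy genes (points, with the called ones in red), and the median and quartiles of all genes in 10 bins of length (grey). The median of all genes goes from 0.30 in the shortest to -0.37 in the longest bin, and Ulk1 lies farthest below it.

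The 3 calls in CKO IgMneg against CKO IgMhi B-1a cells depended on single libraries and on the model. Without control library 3, CKO IgMhi library 3 or CKO IgMneg library 3, 0 of 40 passed, where 6.72%, 0.376% and 4.87% of all genes did. Without CKO IgMhi library 2 only *Gabarap* passed (2.55% of all genes), and without CKO IgMneg library 2 only *Atg2b* did (5.78% of all genes). Without CKO IgMneg library 1 the called genes were *Gabarap*, *Ambra1* and *Ulk1* (8.17% of all genes), and without control library 2 *Atg13* was added to the 3 (8.63% of all genes). The controls enter this comparison only through the shared estimate of spread. With the mouse as a replicate block, limma called 7 genes (17.5% of the members, beside 15.4% of all genes), which were *Gabarap* and *Sqstm1* as higher and *Ulk1*, *Pik3r4*, *Atg13*, *Atg2b* and *Ambra1* as lower. The T-cell markers *Cd3g* (log2 fold change 2.08) and *Lck* (0.90) rose in this comparison. *Cd79a*, *Pax5* and *Bhlhe41* fell and *Spn* rose, as given above, while *Cd79b*, *Ms4a1*, *Cd5* and *Zbtb32* did not pass. The proliferation gene *Mki67* fell, with 763 and 995 normalized counts in CKO IgMhi and 326, 253 and 452 in CKO IgMneg libraries. The part of these marker changes in the results was not tested. With all libraries thinned to the shallowest, an alternative chosen after seeing the data, *Gabarap* and *Sqstm1* passed (5.18% of all genes).

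Other genes of the pathway were taken from a list of 47 written by hand, of which 45 were measured. In CKO IgMneg against CKO IgMhi B-1a cells, 2 of 45 rose and 4 fell in limma (4.44% and 8.89%, beside 1.78% and 5.75% of all genes), and in each of the other comparisons 0 passed, where 0.179% and 0.301% of all genes did. Before adjustment, 4 were higher and 0 lower in CKO IgMhi against control IgMhi (8.89% and 0%, beside 7.01% and 2.61% of all genes), and 4 higher and 2 lower in CKO IgMneg against control IgMhi B-1a cells (8.89% and 4.44%, beside 7.55% and 7.85%). *Vamp8*, a SNARE of fusion with lysosomes, had 505, 479 and 396 normalized counts in control IgMhi, 389 and 411 in CKO IgMhi and 571, 735 and 779 in CKO IgMneg libraries. Every IgMneg library was above every other library, and *Vamp8* rose by 0.78 log2 units over CKO IgMhi (adjusted p = 0.012). *Fam134b*, a receptor for autophagy of the endoplasmic reticulum, rose by 0.58 (adjusted p = 0.0297). *Mtor* and *Rptor* are the kinase and the scaffold of mTORC1, which restrains the ULK complex when nutrients are present. Both fell, with log2 fold changes of -0.74 (limma adjusted p = 0.0284) and -0.83 (limma adjusted p = 0.0176). Their exons are long (10109 and 13471 bases), in the longest bin above, where the median of all genes was -0.37. The part of length in their fall was not tested. Over control IgMhi B-1a cells their log2 differences were -0.44 and -0.37, which did not pass. *Mtor* had 405, 306 and 436 normalized counts in control IgMhi, 388 and 556 in CKO IgMhi and 275, 271 and 287 in CKO IgMneg libraries. The other pair that fell, named for completeness of the count, were *Smcr8* and *Plekhm1*.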

How the data were processed

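RNA from 8 libraries of sorted splenic B-1a cells was sequenced by the authors after removal of ribosomal RNA. Their alignment to mm9 used TopHat2 2.0.13, reads were assigned to genes by HTSeq 0.6.0 (union mode), and normalization used DESeq2 under R 3.3.1. Whether counting used strand is not given in the sources used here. Values deposited by the authors are a signal on the scale of counts: reads per gene over the size factor of that library. Whole reads were recovered from them (100% of values within 0.01 read) for the tests that need counts.

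The main model was limma 3.58.1 (R 4.3.3, with a trend) on log2 values with a pseudocount of 1, over all 8 libraries in 3 groups. It covered 10627 genes, each reaching 10 normalized counts in 2 or more libraries. Tests were two-sided, with Benjamini-Hochberg adjustment and a threshold of 0.05. The members and lists were chosen with earlier results of these data known. Genes with values in every library were those called, the 6 of smallest p in each comparison, the highest per kilobase in each step and 13 core genes. *Ambra1* was added after its values were seen. Of the companion genes, up to 4 called ones were named by smallest p. Positions and exon lengths are from GENCODE vM1 on mm9 (40 of 40 members), and promoters from RefSeq on GRCm38.p6.

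Mouse numbers 2 and 3 label CKO libraries of both sorts, so each number was read as 1 mouse. Deviations of same-numbered libraries from their group means correlated at 0.257 and 0.197, which are not independent of each other, since only 2 CKO IgMhi libraries exist. Fits with that number as a block, and the other alternatives of the closing section, including voom, DESeq2 1.42.0 and edgeR 4.0.16 run on recovered reads, were compared. Those were total, TMM and quantile scaling, a pseudocount of 0.5 or 5, a stricter filter or none, array weights, robust limma, limma with no trend, a fit of only the groups compared, a spline trend on length and GC content removed, each library left out, and 2 chosen after seeing the data. The fitting code was tested on simulated data. Replicates of a group correlated at 0.937 to 0.974 on the log2 scale. All libraries share 1 flow cell label, so no batch could be separated. Part of the genotype is not reported here.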

Additional observations from a re-analysis of the deposited data

How the results depend on the processing

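In CKO IgMhi and in CKO IgMneg against control IgMhi B-1a cells, 0 autophagy genes passed in any of the 28 alternatives run for each. In CKO IgMneg against CKO IgMhi B-1a cells, the count of 3 (7.53% of all genes) became 1 with scaling to total reads (3.56% of all genes), 1 after removal of the length and GC trend (4.92%), 0 in limma without a trend (0%), 6 with array weights (13%), 5 with edgeR (10.4%), 6 with DESeq2 (12.6%) and 7 with voom (14.5%). With the replicate block it was 7 (mouse as random block, 15.4% of all genes), 7 (mouse number as a term, CKO libraries only, 23.2%) and 5 (number as a term, all libraries, 11.9%), and the block changed no call in the other comparisons. Leaving out 1 library at a time gave 0 to 4 called genes (0.376% to 8.63% of all genes). With quantile normalization 2 genes passed (*Gabarap* and *Sqstm1*, beside 7.84% of all genes), and *Ulk1* and *Pik3r4* did not. In a fit of only the 2 groups compared, 3 passed (*Atg13*, *Pik3r4* and *Ulk1*, beside 7.21% of all genes), and *Gabarap* did not. The cause of these changes was not tested. No called gene changed direction: the log2 fold change ranged from -1.89 to -1.02 for *Ulk1*, from -0.67 to -0.43 for *Pik3r4* and from 0.35 to 0.78 for *Gabarap*, with adjusted p of 1.6e-05 to 0.389, 0.0117 to 0.277 and 0.000212 to 0.458.

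The median log2 fold change of the members moved to 0.12 in CKO IgMhi against control IgMhi and to 0.00209 in CKO IgMneg against CKO IgMhi B-1a cells with scaling to total reads, where the medians of all genes were 0.15 and -0.08. Without control libraries 1 and 2, the shallowest (chosen after seeing the data), it was -0.10 in CKO IgMhi against control IgMhi B-1a cells. That fit left control library 3 alone in its group. With 1 library left out, the medians ranged from -0.0866 to 0.0407 (CKO IgMhi against control IgMhi), from 0.0194 (without CKO IgMhi library 3) to 0.146 (CKO IgMneg against CKO IgMhi) and from -0.0568 (without control library 2) to 0.0427 (CKO IgMneg against control IgMhi). Depth limits the lowest members most: *Ulk1* had 18 to 167 reads per library. With 2 CKO IgMhi libraries, a left-out one leaves a lone library that is assumed to vary like the other groups.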
